A study of Mus musculus with 6 samples.

Results

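The alpha-defensins of Paneth cells were followed in intestinal adenomas from mice with different truncations of *Apc*. The 10 genes described are *Defa3*, *Defa5*, *Defa17*, *Defa20*, *Defa21*, *Defa22*, *Defa23*, *Defa24*, *Defa26* and *Defa30*, chosen by their symbols in the GENCODE M21 annotation out of 34866 genes in the count table, which holds 39 rows with a *Defa* symbol. Adenomas were excised from *Apc1322T/+* and *ApcMin/+* mice of the C57BL/6J strain at an age of 100 to 120 days, with 3 libraries of each genotype. Each mouse carried 1 of these alleles in its germline. The study states that *ApcMin* adenomas each arise through loss of heterozygosity at *Apc* in an epithelial cell. The protein made from *Apc1322T* is longer than that made from *ApcMin* and keeps binding sites for β-catenin that the *ApcMin* protein has lost. There were no wild-type or normal crypt libraries in this comparison, so that each level is given against the other genotype alone. mRNA from 1 µg of total RNA was sequenced as stranded single-end reads of 50 bases, typically from pooled extractions of a single mouse per library. The libraries held between 23132461 and 33518324 estimated counts, at which 3 counts, taken as the smallest signal that can be told from 0, correspond to between 0.0895 and 0.130 CPM (counts scaled to a common library total). This limit covers counting error only.

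Alpha-defensins, called cryptdins in the mouse, are short cysteine-rich peptides that disrupt bacterial membranes. Paneth cells at the base of small intestinal crypts make them as inactive precursors, store them in granules and release them into the crypt lumen, and in the mouse the protease encoded by *Mmp7* cleaves the precursors. Wnt signalling through β-catenin and TCF factors is needed for Paneth cells to form and to express these genes. In the RNA of a whole adenoma, fewer cells of a type and less RNA per cell cannot be told apart.

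The 10 genes lie on the plus strand of chromosome 8 of GRCm38 within 709.9 kb, from *Defa21* (chr8:21025545-21026516) to *Defa24* (chr8:21734494-21735471). Each has 1 annotated transcript with 2 exons and between 372 and 425 bases of exon. The transcripts are close copies of each other, with an identity between 79.7% and 99.7% (median 84.1%) over the 45 pairs. The last 60 bases of the coding sequence, which encode the C-terminal part of the peptide, show how far the genes can be told apart by a short read. They are given 5′ to 3′ from the GENCODE M21 transcripts, with capitals where a base differs from the most common base of the 10 genes at that position, aligned from the end of the coding sequence without gaps.
Defa17: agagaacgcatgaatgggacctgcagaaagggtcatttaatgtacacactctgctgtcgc
Defa23: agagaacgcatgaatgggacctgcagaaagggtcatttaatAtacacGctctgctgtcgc
Defa26: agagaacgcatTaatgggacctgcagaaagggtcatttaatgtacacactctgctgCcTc
Defa30: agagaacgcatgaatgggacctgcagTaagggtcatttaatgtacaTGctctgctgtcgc
Defa24: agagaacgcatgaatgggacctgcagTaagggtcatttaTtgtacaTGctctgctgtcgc
Defa5: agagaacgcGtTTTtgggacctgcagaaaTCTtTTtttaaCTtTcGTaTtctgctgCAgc
Defa21: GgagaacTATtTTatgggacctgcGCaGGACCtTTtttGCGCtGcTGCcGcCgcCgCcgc
Defa20: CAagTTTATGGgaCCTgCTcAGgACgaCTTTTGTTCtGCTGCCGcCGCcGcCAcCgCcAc

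*Defa3* has the same 60 bases as *Defa17*, and *Defa22* the same as *Defa21*. *Defa24* differs from the most common bases at 4 positions, *Defa30* at 3, *Defa26* at 3 and *Defa23* at 2. *Defa5* differs at 17 positions, *Defa21* and *Defa22* at 27. *Defa20* differs at 43 positions in this ungapped comparison, and its coding sequence of 285 bases is longer than the 279 bases of the other 9 genes.

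The authors assigned reads with Salmon, which divides a read that matches several transcripts between them. The share of 50-base windows of each transcript that occurs in no other annotated gene was therefore computed. It was 71.9% for *Defa24*, 59.8% for *Defa26* and 47.6% for *Defa30*. *Defa21* and *Defa22* had 27.1% and 25.1%, and they share most of the remaining windows with each other. The share was 8.0% for *Defa17* and 7.8% for *Defa3*, 5.2% for *Defa23*, 0.3% for *Defa5* and 0% for *Defa20*. *Defa20* shares its windows mainly with *Defa2*, *Defa32* and *Defa33*, *Defa5* with *Defa34* and *Gm15293*, and *Defa23* with *Defa31*. All 59 values above 0 of the 10 genes were fractional, compared to 59.6% of the values above 0 over all genes. The counts of these near-copies are thus estimates whose split between genes is uncertain, and sums over near-copies are given beside the single genes.

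*Defa24* had the highest level. Its CPM, normalised between libraries, was 199, 209 and 415 in *Apc1322T* replicates 1, 2 and 3, and 423, 556 and 235 in *ApcMin* replicates 1, 2 and 3. *ApcMin* replicate 3 lay below *Apc1322T* replicate 3, so that the genotypes overlapped. The estimated counts behind these values were between 4397 and 15126 per library.

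*Defa17* (chr8:21655780-21656735) was measured at 165, 161 and 310 CPM in *Apc1322T* and at 288, 357 and 153 CPM in *ApcMin* adenomas. The lowest of the 6 values was *ApcMin* replicate 3. *Defa3* (chr8:21287409-21288377), its near-copy, was assigned far fewer reads, namely 1.602, 2.78 and 5.80 CPM in *Apc1322T* and 4.69, 5.28 and 2.06 CPM in *ApcMin*. The highest value of *Defa3* was in an *Apc1322T* library.

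*Defa30* (chr8:21134642-21135598), which is 98.2% identical to *Defa24* as a transcript, had 50.8, 63.1 and 136 CPM in *Apc1322T* and 160, 254 and 90.5 CPM in *ApcMin* adenomas. *Defa5* (chr8:21297439-21298375) had 24.1, 21.7 and 55.2 CPM in *Apc1322T* and 70.4, 113 and 36.0 CPM in *ApcMin*. In both genes *ApcMin* replicates 1 and 2 were above every *Apc1322T* library, and *ApcMin* replicate 3 was below *Apc1322T* replicate 3.

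*Defa20* (chr8:21509258-21510237) varied most, with 10.03, 4.98 and 29.3 CPM in *Apc1322T* and 64.5, 117 and 12.6 CPM in *ApcMin*. Its highest *ApcMin* value was 23.4 times its lowest *Apc1322T* value, compared to 2.22 times for *Defa17*. *Defa21* had 7.31, 4.66 and 18.6 CPM in *Apc1322T* and 43.7, 49.8 and 20.3 CPM in *ApcMin* adenomas. It was the only one of the 10 genes whose *ApcMin* libraries all exceeded the *Apc1322T* libraries. *Defa22* (chr8:21162277-21163249), which differs little from *Defa21*, had 8.44, 6.72 and 23.6 CPM in *Apc1322T* and 46.1, 60.4 and 13.9 CPM in *ApcMin*, and here the genotypes overlapped. As most windows of *Defa21* occur in *Defa22*, this contrast between them depends on how their shared reads were divided.

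*Defa26* (chr8:21618183-21618972) was low, at 0.806, 0.796 and 1.89 CPM in *Apc1322T* and 1.499, 4.62 and 1.15 CPM in *ApcMin*, or between 17 and 118 counts per library. *Defa23* (chr8:21055047-21056016) was barely detected. It was assigned 2, 3 and 2 counts in *Apc1322T* and 0, 14 and 5 counts in *ApcMin*. The count of 0 in *ApcMin* replicate 1 allows a level of up to 0.0895 CPM. Its near-copy *Defa31*, with which it shares 90.6% of its windows, was assigned between 903 and 4444 counts, and how far the division of reads sets the low level of *Defa23* was not tested.

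**Figure D1:**
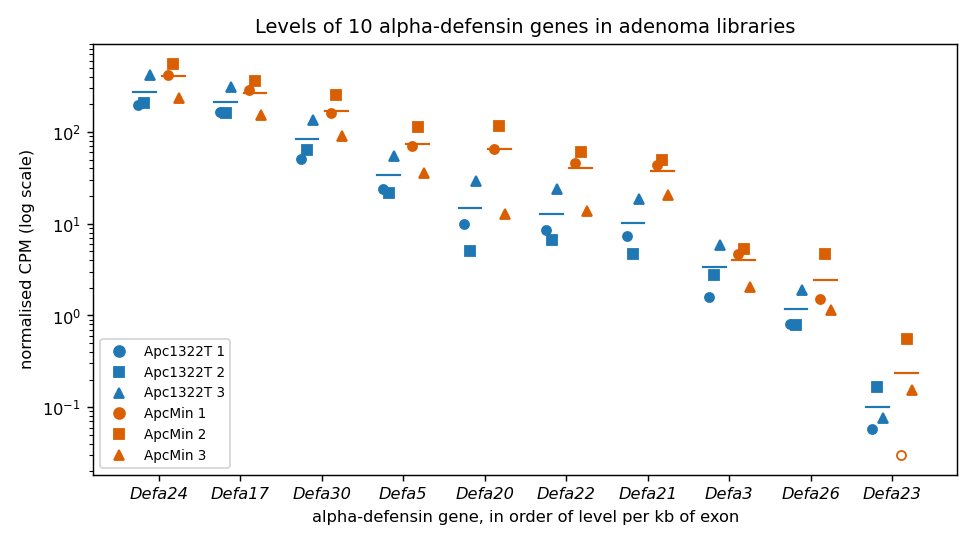
Normalised CPM (log axis) of the 10 alpha-defensin genes in each of 3 *Apc1322T* (blue) and 3 *ApcMin* (orange) libraries, with lines at the group means and an open symbol for the single value of 0, drawn at the bottom. The levels span from about 0.1 CPM for *Defa23* to 556 CPM for *Defa24*, and *ApcMin* replicate 3 lies among the *Apc1322T* libraries for most genes.

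To compare levels between genes, CPM was divided by the length of exon. *Defa24* had 655 ± 291 (SD, n = 3) CPM per kb in *Apc1322T* and 965 ± 385 in *ApcMin* adenomas, and *Defa17* had 533 ± 214 and 670 ± 262. *Defa30* followed with 209 ± 116 and 423 ± 206, and *Defa5* with 89.5 ± 49.7 and 194 ± 102. *Defa20* had 34.7 ± 30.2 CPM per kb in *Apc1322T* and 152 ± 122 in *ApcMin* adenomas. In the mean over the 6 libraries the order went on with *Defa22*, *Defa21*, *Defa3*, *Defa26* and *Defa23*. Within every library *Defa24* was above *Defa17*, *Defa17* above *Defa30* and *Defa30* above *Defa5*. *Defa20* exceeded *Defa22* in 4 libraries and *Defa22* exceeded *Defa21* in 5, so that these 3 neighbours could not be put in a firm order. The ranges of neighbouring genes over the 6 libraries overlapped at each step but the last, from *Defa26* to *Defa23*.

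The 10 genes together took 0.0468%, 0.0432% and 0.0922% of the counts in *Apc1322T* replicates 1, 2 and 3. They took 0.118%, 0.159% and 0.0592% in *ApcMin* replicates 1, 2 and 3. Their summed counts were 12719, 9989 and 22737 in *Apc1322T* and 39442, 38589 and 17860 in *ApcMin* adenomas. After normalisation this was 467, 475 and 995 CPM in *Apc1322T*, a mean of 646 ± 303 (SD, n = 3). In *ApcMin* it was 1102, 1517 and 565 CPM, a mean of 1060 ± 478 (SD, n = 3). The sum was lowest in *Apc1322T* replicates 1 and 2 and in *ApcMin* replicate 3, and it differed by 2.13 times within *Apc1322T* and 2.69 times within *ApcMin*.

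The summed level was 1.64-fold higher in *ApcMin* vs *Apc1322T* adenomas, a log2 fold change of 0.72 ± 0.45 (SE) with a 95% confidence interval from -0.38 to 1.81. This difference was not significant (adjusted p = 0.465, edgeR quasi-likelihood test with Benjamini-Hochberg adjustment over 16528 genes). The interval allows anything between a level of 0.769 times and one of 3.51 times that in *Apc1322T*. An exact two-sided permutation test over the 20 assignments of the 6 libraries gave p = 0.2, where the smallest p possible is 0.1. A single library had much influence, since the log2 fold change was 0.37 without *ApcMin* replicate 2 and 1.17 without *Apc1322T* replicate 3. Summing all 39 *Defa* rows gave a log2 fold change of 0.83 ± 0.47 (SE) and an adjusted p of 0.428 by edgeR.

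Of the 10 genes, 9 passed the filter on low counts, and *Defa23* was not tested. None of the 9 passed an adjusted p under 0.01 by edgeR, and neither did any other of the 16536 genes tested (0%). The study used this threshold with DESeq2. DESeq2 and limma-voom also called 0 of the genes described at this threshold, while DESeq2 called 1.12% of all genes with an adjusted p. At an unadjusted p under 0.05, edgeR called 1 of the 9, *Defa21*, compared to 15.1% of all genes. DESeq2 called 5 of the 10 in this way, compared to 11.5% of all genes. The log2 fold change was above 0 for all 9, compared to 52.4% of all genes tested, but the 9 share reads and libraries and are not independent of each other. Their median log2 fold change was 1.05, compared to 0.02 over all genes. The libraries of the genotypes did not overlap for 1 of the 9, compared to 21% of all genes.

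These counts depended on single libraries. Without *Apc1322T* replicate 3, 6 of the 9 genes had an unadjusted p under 0.05 by edgeR, compared to 8.63% of all genes. Without *ApcMin* replicate 3 it was 5 of the 9, compared to 9.87% of all genes. Without *Apc1322T* replicate 1 it was none, compared to 24.4% of all genes. At an adjusted p under 0.01, 0 of the 9 were called whichever library was left out.

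The size of the difference varied among the genes. It was largest for *Defa20*, with a log2 fold change of 2.13 ± 0.94 (SE) and a 95% interval from -0.15 to 4.4 (adjusted p = 0.347 by edgeR). *Defa21* followed with 1.90 ± 0.58 and an interval from 0.48 to 3.31 (unadjusted p = 0.0167, adjusted p = 0.286 by edgeR). *Defa22* had 1.63 ± 0.68 (adjusted p = 0.335 by edgeR). *Defa5*, *Defa26* and *Defa30* lay close to each other at 1.12 ± 0.52, 1.05 ± 0.65 and 1.01 ± 0.50, with adjusted p between 0.365 and 0.45 by edgeR. The values were smallest for *Defa24* and *Defa17*, the most abundant genes, and for *Defa3*, at 0.56 ± 0.41, 0.33 ± 0.39 and 0.23 ± 0.55, whose intervals all include 0. The interval of *Defa17* ran from -0.61 to 1.27.

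**Figure D2:**
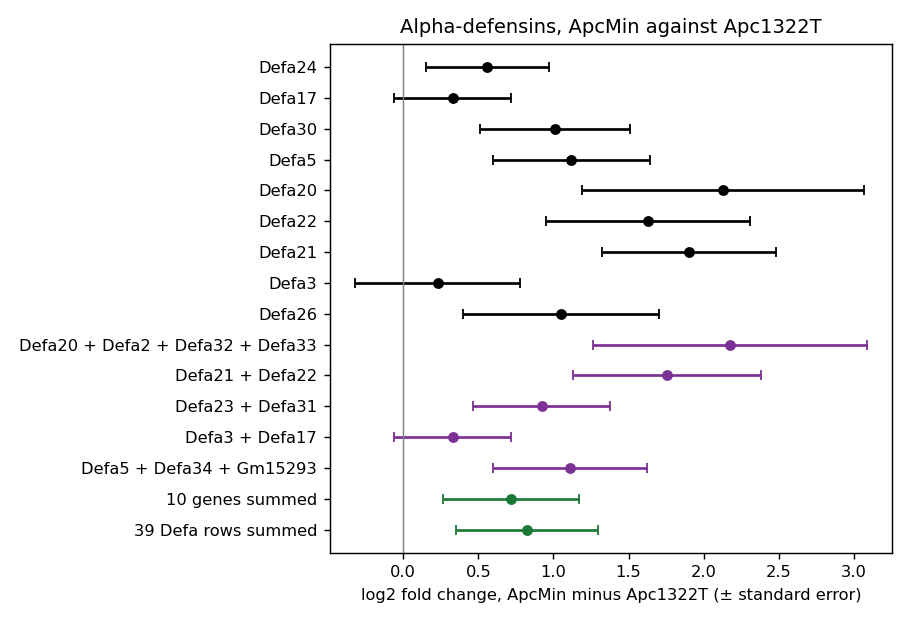
Log2 fold change (*ApcMin* minus *Apc1322T*) with its standard error for the 9 genes tested (black), for genes summed with their near-copies (purple) and for the summed 10 genes and all 39 *Defa* rows (green). The values run from 0.23 for *Defa3* to 2.17 for *Defa20* summed with its near-copies.

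Summing each gene with those that hold 50% or more of its 50-base windows left this order in place. This grouping was chosen after the counts had been seen. *Defa20* with *Defa2*, *Defa32* and *Defa33* had 614, 267 and 1613 counts in *Apc1322T* and 6011, 7011 and 1083 counts in *ApcMin* adenomas. The log2 fold change of this group was 2.17 ± 0.91 (SE), with an adjusted p of 0.336 by edgeR. *Defa21* with *Defa22* had 430, 239 and 964 counts in *Apc1322T* and 3215, 2802 and 1082 counts in *ApcMin*. Their log2 fold change was 1.75 ± 0.63 (SE; adjusted p = 0.31 by edgeR), and the genotypes overlapped after normalisation, so that the separation seen for *Defa21* alone was not kept in the sum. The log2 fold change was 0.33 ± 0.39 for *Defa3* with *Defa17*, and 1.11 ± 0.51 for *Defa5* with *Defa34* and *Gm15293*. For *Defa23* with *Defa31* it was 0.92 ± 0.46, on between 906 and 4444 counts per library. None of these groups passed the threshold.

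Each share is taken of the summed counts of its own library, so that library size cancels out. *Defa24* and *Defa17* together made up 77.9%, 77.9% and 72.8% of the 10 genes' counts in *Apc1322T* replicates 1, 2 and 3. In *ApcMin* replicates 1, 2 and 3 they made up 64.5%, 60.2% and 68.7%, all below the *Apc1322T* libraries. Within each genotype this share was lowest in the library with the highest sum. These were *Apc1322T* replicate 3, at 995 CPM, and *ApcMin* replicate 2, at 1517 CPM. How far the shares follow the level of the sum was not tested. The share of *Defa17* was 33.4% ± 2.12 (SD, n = 3) in *Apc1322T* and 25.6% ± 1.84 in *ApcMin* adenomas, and that of *Defa24* was 42.8% ± 1.17 and 38.9% ± 2.52. The shares of *Defa30*, *Defa5*, *Defa21* and *Defa22* were higher in every *ApcMin* than in every *Apc1322T* library. *Defa30* made up 12.6% ± 1.51 in *Apc1322T* and 15.8% ± 1.13 in *ApcMin*, and *Defa5* made up 5.09% ± 0.487 and 6.73% ± 0.6. *Defa21* made up 1.47% ± 0.451 in *Apc1322T* and 3.62% ± 0.344 in *ApcMin*, and *Defa22* made up 1.86% ± 0.484 and 3.54% ± 0.943. With near-copies summed, as a share of all *Defa* rows and *Gm15293*, *Defa30* made up between 9.07% and 11.2% in *Apc1322T* and up to 12.7% in *ApcMin*, where replicate 1 fell within the *Apc1322T* range, so that the genotypes overlapped. *Defa21* with *Defa22* made up 2.82%, 2.02% and 3.41% in *Apc1322T* and 6.17%, 5.5% and 4.72% in *ApcMin*, without overlap.

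The share of *Defa20* was 2.15%, 1.05% and 2.94% in *Apc1322T* and 5.85%, 7.69% and 2.24% in *ApcMin*. It was high in *ApcMin* replicates 1 and 2 only, and *ApcMin* replicate 3 overlapped with *Apc1322T*. In an exact two-sided permutation test, the 6 shares that did not overlap each reached p = 0.1, the smallest p that 3 against 3 libraries allow, with an adjusted p of 0.167 over the 10 genes. The shares of a sum depend on each other, so that these are not 6 separate results. For *Defa24* and *Defa22* the genotypes were barely apart. *Defa24* made up 41.7% in *Apc1322T* replicate 3 and 41.6% in *ApcMin* replicate 3. *Defa22* made up 2.37% and 2.46% in the same libraries, and its share also depends on how reads were divided with *Defa21*. *ApcMin* replicate 3 had a share of *Defa21* of 3.6%, compared to between 0.981% and 1.87% in *Apc1322T*, although its summed level of 565 CPM lay within the range of the *Apc1322T* libraries.

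**Figure D3:**
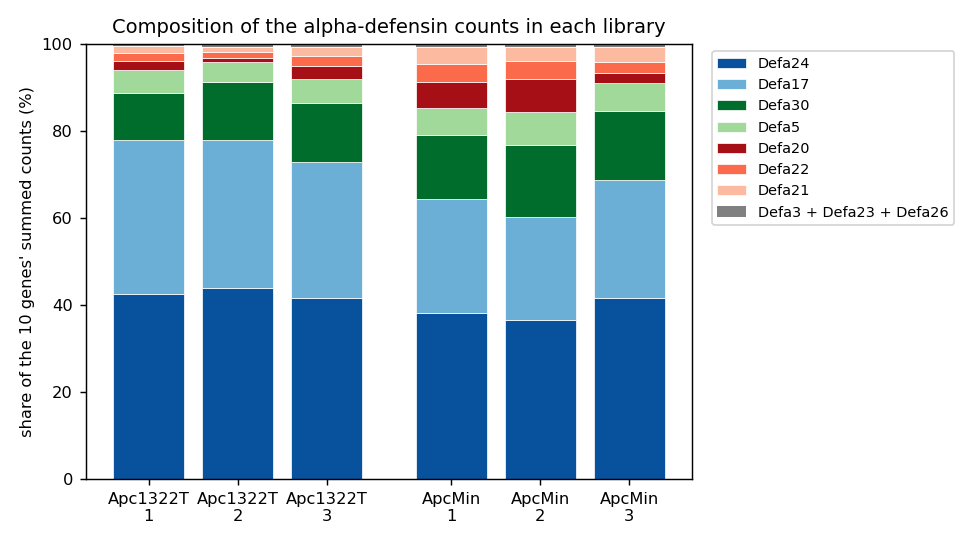
Stacked bars of the share (percent) of each gene in the 10 genes' summed counts, 1 bar per library, with *Defa3*, *Defa23* and *Defa26* drawn together in grey. *Defa24* (dark blue) and *Defa17* (light blue) fill 72.8% or more of each *Apc1322T* bar and 68.7% or less of each *ApcMin* bar.

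Among the 29 other rows with a *Defa* symbol, 10 were at 0 in all libraries and 10 passed the filter. All of those that passed had a log2 fold change above 0, between 0.29 and 2.49, compared to 52.4% of all genes tested above 0. None passed the threshold, and several are near-copies of the 10 genes, so that they are not independent of them. The near-copies *Defa33*, *Defa32* and *Defa2* of *Defa20* had 2.49 ± 0.87, 2.42 ± 0.88 and 2.09 ± 0.92 (SE). The pseudogene *Defa-ps6* had 1.61 ± 0.66, and its libraries did not overlap, at 22, 6 and 54 counts in *Apc1322T* and 129, 98 and 100 in *ApcMin*. *Defa34*, *Defa-ps18*, *Defa37*, *Defa31*, *Defa29* and *Defa35* had 1.10, 1.05, 1.04, 0.92, 0.86 and 0.29. *Defa37* was the most abundant of these beside *Defa31*, at between 526 and 3075 counts.

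The promoters of 5 of the 10 genes could be read from RefSeq on GRCm38.p6. The 150 bases before the RefSeq start are given on the plus strand, because Wnt signalling acts through TCF/LEF factors on genes of this family. Capitals mark CTTTGAT, a core of the sequence bound by TCF/LEF factors, which reads ATCAAAG on this strand, and the TATA box motif TATAAA. The genes shown are *Defa21* (chr8:21025395-21025544), *Defa20* (chr8:21509108-21509257), *Defa23* (chr8:21054890-21055039) and *Defa30* (chr8:21134500-21134649).
Defa21: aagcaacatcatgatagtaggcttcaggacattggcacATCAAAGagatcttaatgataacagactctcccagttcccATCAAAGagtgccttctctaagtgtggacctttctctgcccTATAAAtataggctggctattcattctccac
Defa20: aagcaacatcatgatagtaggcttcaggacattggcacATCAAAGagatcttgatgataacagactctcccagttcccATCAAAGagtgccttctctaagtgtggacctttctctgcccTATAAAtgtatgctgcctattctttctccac
Defa23: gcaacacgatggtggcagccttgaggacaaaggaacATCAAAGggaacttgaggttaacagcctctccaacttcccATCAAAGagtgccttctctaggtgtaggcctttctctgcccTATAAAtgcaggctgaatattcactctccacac
Defa30: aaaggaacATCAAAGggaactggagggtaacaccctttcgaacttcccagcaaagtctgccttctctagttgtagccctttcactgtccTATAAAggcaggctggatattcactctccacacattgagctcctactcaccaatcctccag

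*Defa22* has the same 250 bases before its start as *Defa21*, and *Defa20* differs from them at 5 positions. *Defa21*, *Defa22* and *Defa20* carry CTTTGAT 112 and 72 bases before the start, and *Defa23* carries it 114 and 74 bases before. *Defa30* carries it once, 142 bases before the start. The RefSeq start of *Defa30*, just after chr8:21134649, lies a few bases after its GENCODE start at chr8:21134642. Its TATAAA lies 61 bases before the RefSeq start. In the others TATAAA lies 31 or 33 bases before, a gap larger than the shift between the starts of *Defa30*. Distances from the start are thus not directly comparable for *Defa30*. Over 32851 mouse promoters searched on both strands across 250 bases, 3.2% held CTTTGAT and 0.0822%, or 27 promoters, held it at least 2 times. Of these 27, 9 belong to genes with a *Defa* symbol, and 13 of the 16 *Defa* promoters in the table hold the motif. TATAAA, searched on the strand of the gene, was present in 7.6% of all promoters and in 15 of the 16. Some of these 16 promoters are near-copies, as are those of *Defa21*, *Defa22* and *Defa20*, so that they are not independent of each other. These matches describe the sequences and are not binding sites shown by the data. *Defa23*, which carries CTTTGAT 2 times, had at most 14 counts, and *Defa30*, which carries it once, had between 1327 and 6459. The low count of *Defa23* is uncertain, as it shares 90.6% of its windows with *Defa31*. The part of the motif in the levels was not tested.

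The plus-strand alpha-defensins and their neighbours on the minus strand of the cluster differed in how widely they varied between libraries. This comparison was chosen after the values had been seen and has no test. The minus strand holds 6 protein-coding genes within the cluster and its flanks, 5 of them with counts, namely *Gm14851*, *Defa29*, *Gm7849*, *Gm7861* and *AY761184*. RefSeq places *Defa38*, *Defa42*, *Defa43* and *Defa39* at the positions of *Gm14851*, *Gm7849*, *Gm7861* and *AY761184*, so that they are alpha-defensins by that naming, and it lists CRS1C names, for cryptdin-related sequences, for 3 of the 5. Together they had 17.5, 62.6 and 128 CPM in *Apc1322T* and 88.2, 175 and 27.6 CPM in *ApcMin* adenomas. *Apc1322T* replicates 1 and 2 thus lay far apart for these genes, whereas the 10 plus-strand genes summed to 467 and 475 CPM in the same libraries. The ratio of the 10 plus-strand genes to the minus-strand genes was 26.7 in *Apc1322T* replicate 1 and 20.5 in *ApcMin* replicate 3, and between 7.58 and 12.5 in the other 4 libraries. *Gm7849* showed this most, with 11, 189 and 207 counts in *Apc1322T* and 310, 478 and 0 counts in *ApcMin*. The log2 fold changes of the 5 genes lay between -0.11 ± 0.76 and 0.86 ± 0.83 (SE).

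**Figure D4:**
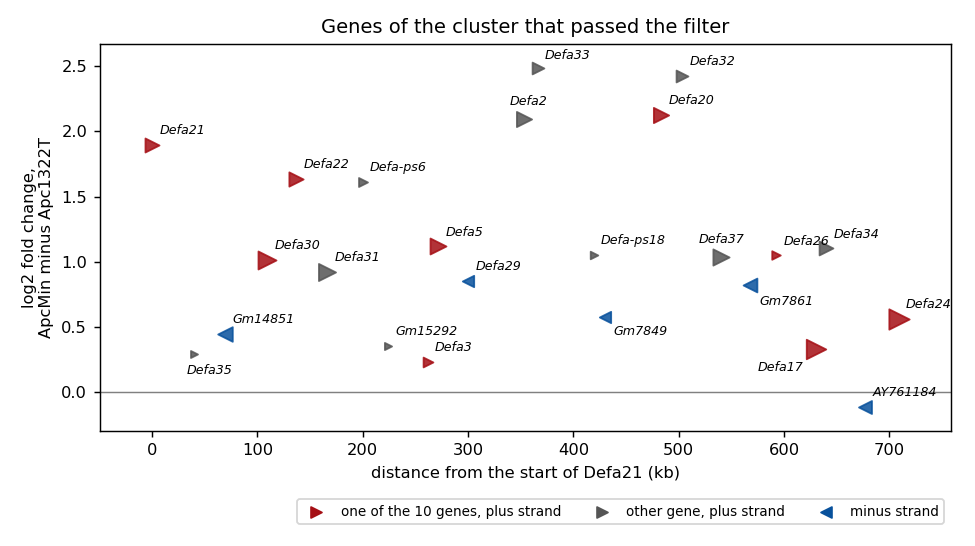
Log2 fold change (*ApcMin* minus *Apc1322T*) of the 24 genes of the cluster that passed the filter against the distance from the start of *Defa21* in kb, with the strand shown by the direction of the triangle and the mean CPM by its size. Of these genes, many of which share reads, 23 lie above 0, compared to 52.4% of all genes tested. The highest values belong to *Defa33*, *Defa32*, *Defa20* and *Defa2*, which are near-copies of each other and lie as 2 neighbouring pairs.

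Whether the defensins moved with other Paneth cell genes was examined with lists of such genes. *Lyz1*, *Mmp7* and *Ang4*, which Paneth cells express, were detected in all 6 libraries. Whether other cells of the adenomas also express them was not tested. Of 16 granule and secretory genes in the table, among them *Lyz1* and, from the cluster, *Gm14851*, but none of the 10 genes described, 15 passed the filter. In *ApcMin* 7 of them had a higher and 8 a lower level, with a median log2 fold change of -0.09. None passed the threshold, and at an unadjusted p under 0.05 there were 2 higher and 2 lower of the 15, compared to 15.1% of all genes. *Lyz1*, encoding the lysozyme of Paneth granules, had 798, 665 and 1100 CPM in *Apc1322T* and 1115, 1082 and 1726 CPM in *ApcMin*, a log2 fold change of 0.61 ± 0.26 (SE; adjusted p = 0.331 by edgeR). Its highest value was in *ApcMin* replicate 3, the *ApcMin* library with the lowest defensin sum. *Mptx2*, encoding a pentraxin of mature Paneth cells, had 30.4, 38.1 and 54.0 CPM in *Apc1322T* and 49.3, 112 and 77.3 CPM in *ApcMin* (0.96 ± 0.34, adjusted p = 0.31 by edgeR). The antibacterial lectin genes *Reg3b*, *Reg3g* and *Reg3a*, which enterocytes also express, had log2 fold changes of -0.98 ± 0.56, -1.02 ± 0.50 and -1.93 ± 0.63. *Habp2* had -0.87 ± 0.21 and *Itln1* -0.13 ± 0.35.

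Of 21 genes of Paneth cell fate and maturation, 7 were higher and 14 lower in *ApcMin*, with a median of -0.13 and none past the threshold. At an unadjusted p under 0.05 there were 2 higher and 2 lower of the 21, compared to 15.1% of all genes. *Kit*, a receptor found on Paneth-type cells and on mast and interstitial cells, had 10.8, 17.0 and 14.97 CPM in *Apc1322T* and 27.9, 36.1 and 47.4 CPM in *ApcMin*. Its log2 fold change was 1.39 ± 0.25 (SE), with an adjusted p of 0.257 by edgeR and 7.81e-05 by DESeq2. The transcription factor genes *Foxa2*, *Hnf4a* and *Cdx2* had 1.21 ± 0.36, -0.53 ± 0.20 and -0.50 ± 0.19. *Sox9*, which Paneth cells require, had -0.35 ± 0.16, *Xbp1* had -0.11 ± 0.11 and *Cd24a* 0.00 ± 0.15.

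Of 18 genes for the processing, storage and release of defensins, 7 were higher and 11 lower, with a median of -0.03 and none past the threshold. At an unadjusted p under 0.05 there were 0 higher and 3 lower of the 18, a share near the 15.1% of all genes. *Mmp7*, encoding the protease that activates mouse alpha-defensins, had 288, 195 and 261 CPM in *Apc1322T* and 351, 276 and 236 CPM in *ApcMin* (0.22 ± 0.20, adjusted p = 0.604 by edgeR). The zinc transporter gene *Slc30a2*, which serves the granules, had -0.55 ± 0.15, the muscarinic receptor gene *Chrm3* -0.92 ± 0.21 and the disulphide isomerase gene *P4hb* -0.48 ± 0.11. The libraries of these 3 genes did not overlap between the genotypes, as was the case for 5 of the 18 genes and for 21% of all genes. *Pdia3*, *Rab3d* and *Lrrk2* had -0.18 ± 0.11, -0.20 ± 0.20 and 0.64 ± 0.32. Of 8 beta-defensin and cathelicidin genes, *Defb2*, *Defb3*, *Defb4* and *Defb6* were at 0 in all libraries, and *Defb37*, the only one tested, had at most 16 counts (0.27 ± 1.15).

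The tested alpha-defensins moved together between libraries. Over the 36 pairs of the 9 genes, Pearson's r of log2 CPM across the 6 libraries lay between 0.64 and 0.99 (median 0.918), which is a description of genes that share reads. *ApcMin* replicates 1 and 2 held the highest 2 values for 6 of the 9, and *ApcMin* replicate 3 was below *Apc1322T* replicate 3 for 8 of the 9. The correlation of the defensin sum over the 6 libraries was 0.547 with *Mmp7*, 0.316 with *Lyz1*, 0.687 with *Mptx2* and 0.779 with the granule ribonuclease gene *Ang4*. Of 54 tested genes of the Paneth cell lists, 2 had a value above 0.8, *Nr5a2* at 0.832 and *Gm14851* at 0.821, and the lowest values were -0.893 with *Sox9* and -0.948 with *Xbp1*. Of 10775 genes without a *Defa* symbol and with a mean log2 CPM of at least 3, those most like the sum included *Pgm2l1* (r = 0.981), *Cux1*, *Map3k6*, *Mettl8*, *Hmgxb4*, *Itsn1* and *Tgfbi* (r = 0.956). *Pgm2l1* had 53.1, 51.5 and 59.6 CPM in *Apc1322T* and 64.2, 67.2 and 55.2 CPM in *ApcMin*. These values rest on the same 6 libraries as the sum and are given as a description.

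Genes of the distal small intestine differed in how far they followed the defensins between libraries. All 7 genes of this list were detected, and their summed level was 100, 240 and 281 CPM in *Apc1322T* and 482, 509 and 96.4 CPM in *ApcMin* adenomas. *Fabp6*, encoding the ileal bile acid binding protein, had 127 and 82.8 CPM in *ApcMin* replicates 1 and 2, but 0.98 CPM in *ApcMin* replicate 3 and between 0.477 and 0.618 CPM in *Apc1322T*. *Slc10a2*, encoding the ileal bile acid transporter, had 65.6 and 77.9 CPM in *ApcMin* replicates 1 and 2 and between 3.98 and 8.53 CPM in the other 4 libraries. *Mep1a*, encoding a brush border protease, had 9.43, 46.7 and 50.7 CPM in *Apc1322T* and 99.5, 122 and 5.94 CPM in *ApcMin*, and was lowest in the libraries in which the minus-strand defensins were lowest. The other 4 genes had log2 fold changes of -0.02 for *Slc51a*, -0.03 for *Slc51b*, 0.05 for *Cubn* and 0.15 for *Nr1h4*, which was highest in *ApcMin* replicate 3 at 24.9 CPM. *Slc51a* had 45.1, 92.8 and 114 CPM in *Apc1322T* and 100, 107.5 and 41.0 CPM in *ApcMin*. *Cubn* had 12.2, 43.15 and 54.5 CPM in *Apc1322T* and 45.4, 61.8 and 6.64 CPM in *ApcMin*. Both were thus highest in *Apc1322T* replicate 3 and *ApcMin* replicates 1 and 2, which had the highest defensin sums. *Slc51b* was lowest in *Apc1322T* replicate 1 and *ApcMin* replicate 3, at 11.3 and 12.6 CPM. The labels used here do not give the position of each adenoma along the intestine. The part of position in the defensin levels was not tested.

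**Figure D5:**
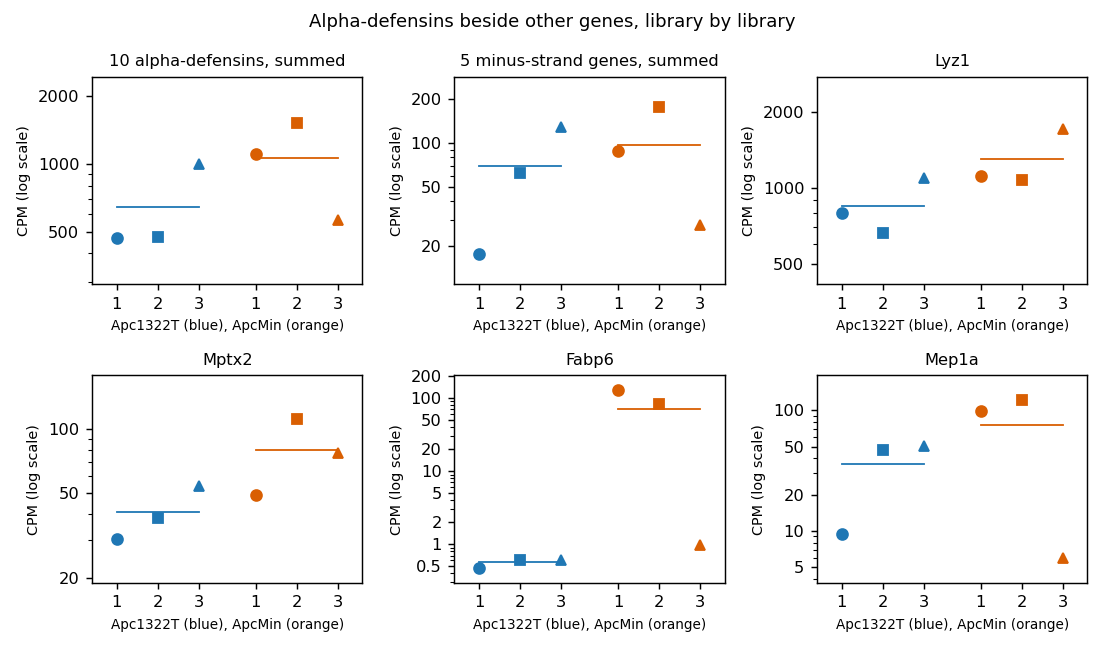
CPM (log axes) in each of 3 *Apc1322T* (blue) and 3 *ApcMin* (orange) libraries, with lines at the group means, of the 10 alpha-defensins summed, the 5 minus-strand genes summed, *Lyz1*, *Mptx2*, *Fabp6* and *Mep1a*. *ApcMin* replicate 3 is low for the defensins, *Fabp6* and *Mep1a*, and is the highest library for *Lyz1*.

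Markers of other cells were present in both genotypes. The summed CPM of epithelial markers was between 12000 and 14900 in *Apc1322T* and between 9530 and 11400 in *ApcMin*, without overlap. That of stroma and muscle was between 529 and 1280 in *Apc1322T* and between 970 and 2470 in *ApcMin*, and that of leukocytes between 39.5 and 61.6 and between 53.7 and 139. Goblet markers summed to between 6300 and 9600 and between 4300 and 6480, and enterocyte markers to between 16000 and 26700 and between 8760 and 19000. Stem cell markers summed to between 1180 and 1810 and between 1060 and 1410, enteroendocrine markers to between 70.4 and 124 and between 82.5 and 106, tuft cell markers to between 34.3 and 40.6 and between 39.6 and 64.4, and pancreatic acinar genes to between 73.5 and 153 and between 90.2 and 270. No marker of these lists was at 0 in all libraries. Their part in the defensin levels was not tested.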

How the data were processed

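Per the labels and the study's methods, the authors assigned reads to GRCm38 transcripts with Salmon and deposited 1 estimated count per gene and library, not scaled for depth. The 6 columns were matched to samples by their labels, and no other columns were present. Counts were rounded, genes were kept by filterByExpr (minimum count 10, minimum total 15), and *ApcMin* was tested against *Apc1322T* in edgeR 4.0.16 (robust quasi-likelihood, TMM factors) at an adjusted p under 0.01. DESeq2 1.42.0 and limma 3.58.1 in R 4.3.3 were alternatives, as were other filters, other size factors, a block for the replicate number and leaving out each library. Log2 CPM used a prior count of 2. Symbols matched 34582 of 34866 genes. The 50-base windows were searched in 141767 GENCODE M21 transcripts. The fit was tested on simulated counts. Named were the 10 genes, all other *Defa* rows tested, from each Paneth list the 4 most abundant genes and the 4 with the smallest p, and the 8 genes most like the sum, of which 1 is not reported here. Genes outside this rule, among them the minus-strand genes, *Ang4*, *Nr5a2* and the distal genes, were named after their values were seen. The genes and lists were chosen with earlier results of these data known. Whether replicates came from separate mice is stated only in general, so that p-values measure the spread between these samples. *Defa1* was not analysed here.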

Additional observations from a re-analysis of the deposited data

How the results depend on the processing

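The log2 fold change of the summed 10 genes stayed above 0 and short of the threshold under all alternatives run, and 0 of the genes described passed an adjusted p under 0.01 in any of them. Leaving out 1 library moved the sum between 0.37 and 1.17, *Defa20* between 1.38 and 3.09, *Defa21* between 1.56 and 2.66, *Defa17* between 0.06 and 0.71 and *Defa24* between 0.26 and 0.98. *Defa3* was between -0.10 and 0.86 and thus changed direction, as did *Rab3d* (-0.334 to 0.039), *Cd24a* (-0.084 to 0.188), *Defb37* (-0.30 to 0.82) and *Itln1* (-0.30 to 0.16). *Cd24a* was -0.005 with DESeq2's size factors and -0.011 with DESeq2. The difference in share changed direction for *Defa23* (between -0.00419 and 0.014 percentage points) and for *Defa26* (between -0.00819 and 0.0763). The lowest adjusted p of a gene described was 0.0115, for *Defa21* by DESeq2, compared to up to 0.43 in the other settings with all libraries. *Habp2*, *Kit* and *P4hb* passed the threshold by DESeq2, with adjusted p of 0.0093, 7.81e-05 and 0.00267. Over all genes, DESeq2 called 194 genes at an adjusted p under 0.01, compared to 0 by edgeR. There was 1 call with no filter on low counts and 1 at an adjusted p under 0.05, and leaving out 1 library gave between 0 and 1. The cause of these differences was not tested.

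The replicate numbers 1 to 3 occur in both genotypes but name different mice, and the deviations of same-numbered libraries correlated at -0.014, 0.164 and -0.286, so that they do not pair the samples. With the replicate block the log2 fold change of the sum was 0.73 (adjusted p = 0.608 by edgeR), and 0 of the 9 genes had an unadjusted p under 0.05.

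Depth is not the limit for the abundant genes, whose spread between libraries is wide. *Defa23* and *Defa26* rest on few counts. Reads of 50 bases leave the split between near-copies uncertain, as for *Defa20*, which has no window of its own.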
